A study of Mus musculus with 10 samples.

Results

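Expression of 33 genes of the endoplasmic reticulum (ER) stress response and of the integrated stress response was measured in mouse bone marrow derived macrophages, which are primary macrophages grown in culture from marrow cells. The 33 genes were listed by symbol, with earlier results of these data known, and all 33 were found among the 45318 genes of the deposited table. They fall into 11 genes of the ATF4 branch (Atf4, Atf5, Ddit3, Trib3, Chac1, Asns, Sesn2, Ppp1r15a, Nupr1, Vldlr and Gadd45a), 4 sensors and their factors (Eif2ak3, Ern1, Atf6 and Xbp1), and 18 genes of protein folding and degradation in the ER. The last group holds Hspa5, Hsp90b1, Hyou1, Dnajb9, Dnajb11, Dnajc3, Pdia3, Pdia4, Pdia6, Calr, Canx, Creld2, Sdf2l1, Manf, Herpud1, Edem1, Sel1l and Syvn1.

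All cells came from C57BL/6 mice and carried the label WT or Tlr4 -/- (KO below), Tlr4 being the receptor for bacterial lipopolysaccharide. The 10 libraries made 5 groups of 2. Untreated WT and untreated KO cells carry no medium or time in the labels. WT and KO cells in control medium had 6 h of pre-treatment with 5% fetal bovine serum (FBS) plus 2% bovine serum albumin (BSA). The fifth group was KO cells with a pre-treatment by Poly(I:C), which is a synthetic mimic of viral double-stranded RNA. Its time, dose, serum and albumin are not stated. WT cells with Poly(I:C) were not analysed here, and the labels give neither the age of the mice nor which part of Tlr4 was deleted. The labels number the samples of a group without saying whether each was its own culture or mouse, and p-values then reflect only the spread among these samples, possibly a technical one.

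The ER folds and modifies secreted and membrane proteins. When unfolded protein builds up there, the membrane sensors that respond are PERK (Eif2ak3), IRE1 (Ern1) and ATF6. PERK phosphorylates the translation factor eIF2, which slows most protein synthesis and favours translation of the transcription factor ATF4, whose targets serve amino acid supply, redox balance and cell death or recovery. Kinases that sense double-stranded RNA, amino acid shortage or heme shortage act on the same eIF2 site, and this wider circuit is the integrated stress response. IRE1 splices Xbp1 mRNA into the form that encodes an active factor, and ATF6 is released by proteolysis. Both factors raise transcription of chaperones, disulfide isomerases and the machinery that returns misfolded protein to the cytosol for degradation. In macrophages, Toll-like receptor ligands are known to engage the IRE1 and XBP1 arm. The gene-level values used here do not show Xbp1 splicing, eIF2 phosphorylation or protein levels.

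Tlr4 itself stood at 60.1 and 69.1 CPM (the deposited value relative to the scaled total of its library) in untreated WT libraries and 44.4 and 44.95 in untreated KO libraries, a log2 difference of −0.53 (SE 0.14, limma adjusted p = 0.346). In control medium its values were 32.3 and 38.95 CPM in WT and 30.8 and 34.7 in KO libraries, so transcript level did not mark the genotype and every genotype statement below rests on the labels. The 11 macrophage markers, among them Adgre1, Csf1r, Cd68 and Lyz2, were all at 1 CPM or more in every group. Lyz2 alone (14670.0 to 19160.0 CPM) made up most of their sum. Single markers moved with the groups: Fcgr1 had means of 227 CPM in untreated WT, 1038 in WT control medium, 122 in KO control medium and 1528 with Poly(I:C), Cd14 of 163, 1049, 209 and 658 CPM, and Mrc1 of 489, 157, 205 and 177 CPM in the same order. Deposited totals were 25.2 to 26.7 M units in the untreated and KO control medium libraries and 41.1 to 51.7 M in the WT control medium and Poly(I:C) libraries, at the same 75th percentile of 25 units per gene in all 10. The reads behind them were estimated at 18.3 to 56.5 M, by a scaling factor fitted to the low whole numbers of each library. Replicates correlated at 0.992 to 0.994 across genes on the log2 scale. Because totals and the level of a typical gene moved apart, the choice of scaling shifts every fold change in the comparisons with WT control medium or Poly(I:C). The values below are scaled by trimmed means of M values (TMM), which left the median of all genes between −0.06 and 0.04 on the log2 scale. Scaling by totals alone moved that median to −0.52 for WT control medium versus WT untreated, 0.50 for KO versus WT control medium, 0.52 for the interaction, and −0.76 and −0.77 for Poly(I:C) versus KO control medium and versus KO untreated.

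In WT cells, 6 h in control medium went with higher Ppp1r15a, Nupr1 and Gadd45a, with higher Hspa5 and Syvn1 among the ER genes, and with lower Trib3, Eif2ak3, Vldlr, Sesn2 and Atf5. Of the 33 genes, 24 passed the test across all genes (72.7%), 11 higher and 13 lower, against 65.8% of all 13171 genes tested, 33.1% higher and 32.8% lower. The share of stress genes that passed thus lay near that of all genes. The ATF4-type genes had a median log2 difference of −0.79 (3 rose, 7 fell) and the ER folding and degradation genes one of 0.25 (7 rose, 4 fell), with a median of −0.0054 over all genes. With totals alone the split of the 33 was 4 higher and 22 lower and that of the 18 ER genes 1 higher and 11 lower, and with the deposited scaling they were 17 higher and 11 lower and 12 higher and 2 lower. Under TMM 13 of the 18 ER genes were above the median of all genes and 5 below, a position that a change of scaling leaves alone by its construction. Without 1 or more of the 4 libraries, the calls of Atf6, Calr, Canx, Dnajc3 and Edem1 were lost (adjusted p of 0.0504 to 0.22 in those fits), and the other 19 passed in each such fit.

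In KO cells the same medium went with no rise in any of the 33 genes. The genes that fell were 6 of the ATF4 type, led by Trib3 and Ddit3, 3 of the sensor group and 8 of the ER group, Hspa5 and Manf among them. These 17 genes compare with 9.08% of all genes that fell and 10.9% that rose, 20.0% in all. Medians were −0.44 for the ATF4-type genes and −0.30 for the ER genes, with 0.0044 over all genes. The count rests on each of the 4 libraries: it was 7 without KO untreated replicate 1, 7 without KO untreated replicate 2, 10 without KO control medium replicate 1 and 5 without KO control medium replicate 2. Ddit3, Trib3, Ern1, Pdia4 and Edem1 passed in each of these 4 fits, and Dnajb9, Dnajc3, Eif2ak3, Hspa5, Hyou1, Manf and Pdia6 in none. With no filter on low values, Chac1, Dnajb9, Dnajc3, Manf and Pdia6 did not pass (adjusted p of 0.0512 to 0.0827).

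Between untreated cells of the KO and WT labels, 0 of the 33 genes passed limma's test, in which 0.167% of all genes passed, 0.0835% higher and 0.0835% lower in KO. At an unadjusted limma p under 0.05 there were 5 of the 33 genes, against 1146 of all 13171 genes tested. The 5 were Ddit3, Hspa5, Nupr1, Ppp1r15a and Trib3, all with lower values in KO, and the lowest adjusted p of the 33 was 0.15. Log2 differences were −0.53 for Ddit3, −0.48 for Trib3 and −0.31 for Ppp1r15a.

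In control medium, libraries labelled KO had less Nupr1, Gadd45a, Ppp1r15a, Hspa5, Ddit3 and Syvn1 than WT libraries, and more Vldlr, Eif2ak3, Atf5, Herpud1 and Sesn2. With TMM scaling 27 of the 33 passed, 5 higher and 22 lower in KO, against 61.1% of all genes, 30.9% higher and 30.2% lower. With totals alone the split was 11 higher and 10 lower. Among the 18 ER genes it was 1 higher (Herpud1) and 15 lower under TMM and 4 higher and 5 lower with totals alone, and 15 of the 18 were below the median of all genes under TMM. The calls of Atf6, Dnajb9, Edem1, Hsp90b1 and Sdf2l1 were lost without 1 or more of the 4 libraries. The ER median was −0.53, the ATF4-type median −0.28 and that of all genes 0.03.

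The test of the difference itself, the interaction of genotype and control medium, passed for 21 of the 33, 5 with a higher and 16 with a lower response in KO, against 45.7% of all genes, 22.0% higher and 23.7% lower. With totals alone the split was 9 higher and 5 lower. Of the 18 ER genes, 1 was higher and 11 lower under TMM, and 16 lay below the median of all genes under TMM. The calls of Canx, Dnajb9 and Sel1l were lost without 1 or more libraries. The ATF4-type genes were divided, 3 higher (Atf5, Sesn2 and Vldlr) and 4 lower (Ddit3, Ppp1r15a, Nupr1 and Gadd45a). This test, the response of WT cells and the comparison of genotypes in control medium share libraries.

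Poly(I:C)-treated KO cells, set against KO cells in control medium, had more Ppp1r15a, Nupr1, Gadd45a, Hspa5 and Syvn1, and less Vldlr, Eif2ak3, Herpud1, Sesn2 and Atf5. Under TMM 29 of the 33 passed, 20 higher and 9 lower, against 69.4% of all genes, 32.5% higher and 36.9% lower. With totals alone the split was 5 higher and 19 lower. The 18 ER genes divided into 13 higher and 3 lower under TMM, 2 higher and 11 lower with totals alone and 15 higher and 1 lower with the deposited scaling. Under TMM 15 of the 18 were above the median of all genes. Without 1 or more of the 4 libraries the calls of Asns, Dnajc3, Edem1, Hsp90b1, Hyou1, Pdia3 and Pdia4 were lost (adjusted p of 0.0624 to 0.181 in those fits). Medians were 0.34 for the ER genes, −0.41 for the ATF4-type genes and −0.06 over all genes. Against untreated KO cells, 24 of the 33 passed, 12 in each direction, with Edem1, Manf, Pdia3 and Xbp1 lost without 1 or more libraries, beside 72.1% of all genes, 34.5% higher and 37.6% lower. That split was 5 higher and 24 lower with totals alone and 16 higher and 11 lower with the deposited scaling. As the content of the Poly(I:C) medium beyond Poly(I:C) is not stated, the agent and its medium cannot be told apart.

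**Figure D1:**
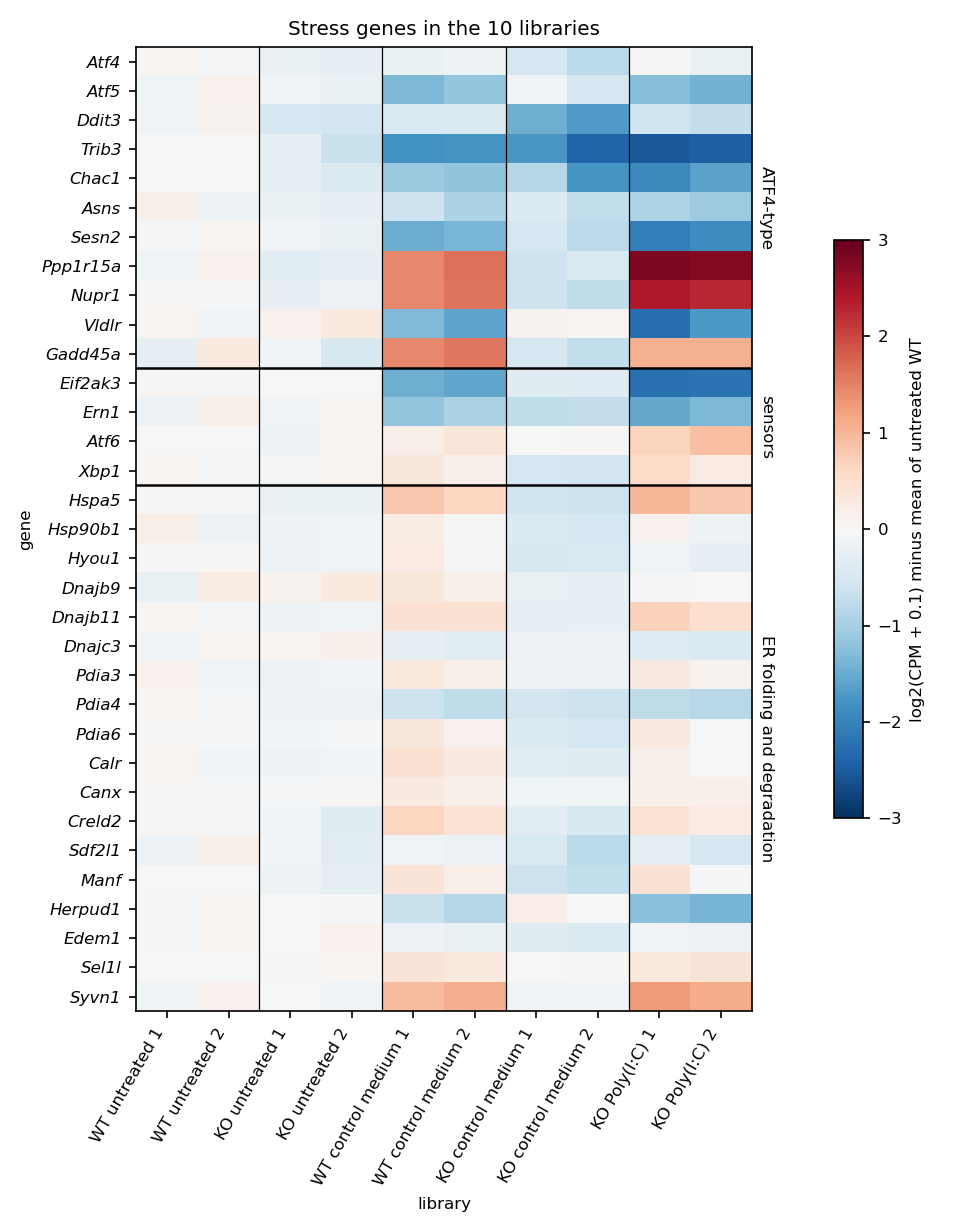
Log2(CPM + 0.1) of each of the 33 genes in each of the 10 libraries, TMM scaled, minus the mean of the 2 untreated WT libraries, with genes in rows by role and libraries in columns by group. Colour runs from blue (lower) over white to red (higher). Ppp1r15a and Nupr1 stand out red in WT control medium and Poly(I:C), Eif2ak3 and Sesn2 blue in the same 4 libraries, and Trib3 blue in all 6 libraries that were not untreated.

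Per kilobase of exon, the ER chaperones and isomerases were the most abundant of the 33 genes in untreated WT cells. Calr, a lectin-type chaperone, led with a mean of 306 CPM per kilobase, followed by Hsp90b1 at 253, Hspa5 at 242 and Pdia3 at 204 CPM per kilobase. Atf4 was the highest ATF4-type gene at 96.8 CPM per kilobase and Xbp1 the highest of the sensor group at 44.0. Eif2ak3 (4.698), Gadd45a (3.43), Chac1 (2.92) and Vldlr (1.71) closed the order. All 33 passed the filter on low values, a value of 10 in at least 2 libraries. CPM values given below for single genes are not per length and are compared only within a gene.

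The sensors did not move as a set. Eif2ak3 (ENSMUSG00000031668) encodes PERK, the eIF2 kinase of the ER membrane. Eif2ak3 was at 29.2 and 27.5 CPM in the untreated WT libraries, 28.5 and 28.2 in untreated KO, 10.3 and 9.56 in WT control medium, 21.9 and 21.6 in KO control medium and 5.93 and 6.02 in KO with Poly(I:C). The WT control medium and Poly(I:C) libraries lay below all others, without overlap, and the untreated groups overlapped. On the log2 scale Eif2ak3 fell by 1.51 (SE 0.09, adjusted p = 3.07e-07) in WT control medium and fell by 0.38 (SE 0.09, adjusted p = 0.0168, 0.0819 to 0.109 without any 1 library) in KO control medium, and the interaction was 1.13 (adjusted p = 7.15e-05). Poly(I:C) libraries were lower than KO control medium by 1.85 (SE 0.09, adjusted p = 5.3e-08).

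Ern1 encodes IRE1, the kinase and RNase that splices Xbp1. Ern1 stood at 67.6 and 86.7 CPM in untreated WT cells and 71.6 and 79.3 in untreated KO cells, at 34.3 and 39.9 CPM in WT and 44.9 and 46.8 in KO control medium, and at 26.3 and 30.2 CPM with Poly(I:C). Its values were lower in all 6 treated libraries than in all 4 untreated ones. Ern1 fell by 1.05 in WT and fell by 0.72 in KO control medium, with an interaction that did not pass (0.33, adjusted p = 0.164), and fell by 0.70 from KO control medium to Poly(I:C). Atf6 encodes the sensor that is cut to release a transcription factor. Atf6 measured 127 and 129 CPM untreated and 145 and 166 in control medium in the WT libraries, against 114 and 132 untreated, 129 and 131 in control medium and 204 and 238 with Poly(I:C) in the KO libraries. The Poly(I:C) libraries were highest, those of WT control medium next, and the other 3 groups overlapped. Atf6 rose by 0.76 with Poly(I:C) against KO control medium (0.0474, not called, with totals alone), while its rise of 0.28 in WT control medium turned to −0.26 with totals alone and did not pass with no filter (adjusted p = 0.055).

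Xbp1 encodes the transcription factor made after IRE1 splicing, and the values here sum its spliced and unspliced forms. Xbp1 was at 149.5 and 136 CPM in the untreated WT libraries, 139 and 150.3 in untreated KO, 181 and 159 in WT control medium, 99.3 and 96.8 in KO control medium and 211 and 170.0 in KO with Poly(I:C). KO control medium libraries lay below all others, and those of WT control medium and Poly(I:C) overlapped above the untreated ones. Xbp1 fell by 0.56 (SE 0.11, adjusted p = 0.00622) in KO control medium and had a log2 difference of 0.25, adjusted p = 0.066 in WT. The interaction was −0.81 (adjusted p = 0.00187; −0.31, adjusted p = 0.132, with totals alone). With Poly(I:C) Xbp1 rose by 0.95 against KO control medium (0.23, adjusted p = 0.0929, with totals alone), and its rise of 0.39 against untreated KO turned to −0.36 with totals alone.

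The ATF4-type genes split into 3 that rose in WT control medium and with Poly(I:C) and a larger group that fell in WT control medium. In that group, Trib3 (−0.41, adjusted p = 0.0819) and Chac1 (−0.46, adjusted p = 0.158) did not pass with Poly(I:C) against KO control medium. Atf4 and Ddit3 stood apart, lowest in KO control medium, though Ddit3 also fell in WT control medium. Promoter windows from 250 bases before to 50 bases after the annotated start, taken from RefSeq (GRCm38.p6), were found for 30 of the 33 genes and searched on both strands. The composite element bound by C/EBP and ATF factors, TGATGNAA, was found in 5 of the 11 ATF4-type genes (45.5%) and in 1 of 16 ER genes with a window (6.25%). Of all 32851 windows of this length, 3.97% held it. Shares of the listed genes are counted by gene and those of the background by window, so they are not strictly alike. The 5 were Chac1, Trib3, Asns, Nupr1 and Vldlr, and the match of Trib3 lay after the start. A match is a run of letters and does not show binding. Stretches of 100 bases are shown for 3 of them that moved differently, with the match in capitals, here on the opposite strand: Nupr1 (chr7:126625527-126625626, minus strand), Vldlr (chr19:27216774-27216873, plus strand) and Chac1 (chr2:119351003-119351102, plus strand).
Nupr1: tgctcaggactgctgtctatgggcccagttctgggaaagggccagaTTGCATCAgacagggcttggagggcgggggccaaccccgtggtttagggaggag
Vldlr: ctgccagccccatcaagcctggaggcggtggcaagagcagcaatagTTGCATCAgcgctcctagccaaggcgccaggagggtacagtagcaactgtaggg
Chac1: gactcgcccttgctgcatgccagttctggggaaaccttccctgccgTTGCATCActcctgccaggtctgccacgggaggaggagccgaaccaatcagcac

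The first of these genes rose in WT control medium, the other two fell, and the same 8 letters stand in all 3 stretches. Over the 5 genes with the element, 1 rose and 4 fell in WT control medium, and of the 6 without it 2 rose and 3 fell, beside 33.1% and 32.8% of all genes.

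Ppp1r15a (ENSMUSG00000040435) encodes GADD34, the phosphatase subunit that removes the phosphate from eIF2. Ppp1r15a stood at 26.03 and 31.3 CPM in untreated WT cells and 22.4 and 23.7 in untreated KO cells, at 78.2 and 90.2 CPM in WT and 18.7 and 20.8 in KO control medium, and at 199.6 and 193 CPM with Poly(I:C). All 4 libraries of WT control medium and Poly(I:C) lay above all others, and KO control medium lay below both untreated groups. Ppp1r15a rose by 1.55 (SE 0.11, adjusted p = 8.75e-07) in WT control medium, a 2.94-fold difference, against −0.23, adjusted p = 0.18 in KO control medium. The interaction was −1.78 (SE 0.15, adjusted p = 1.18e-05). From KO control medium to Poly(I:C) it rose by 3.31 (SE 0.11, adjusted p = 4.3e-09), or 9.92-fold.

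Nupr1 (ENSMUSG00000030717) encodes a small stress-induced chromatin protein. Nupr1 measured 28.7 and 27.5 CPM untreated and 76.7 and 86.03 in control medium in the WT libraries, against 23.8 and 24.9 untreated, 18.1 and 16.5 in control medium and 148 and 136 with Poly(I:C) in the KO libraries. The pattern over the libraries was that of Ppp1r15a, with KO control medium lowest. Nupr1 rose by 1.53 (SE 0.09, adjusted p = 2.46e-07) in WT and fell by 0.49 (SE 0.09, adjusted p = 0.00454) in KO control medium, and the interaction of −2.02 (adjusted p = 1.53e-06) was the largest of the 33 in size. With Poly(I:C) it rose by 3.03 (SE 0.09, adjusted p = 2.44e-09) against KO control medium. Gadd45a encodes a growth arrest and DNA damage protein. Gadd45a was at 4.79 and 7.31 CPM in the untreated WT libraries, 5.63 and 4.25 in untreated KO, 16.2 and 18.01 in WT control medium, 4.13 and 3.504 in KO control medium and 12.5 and 12.5 in KO with Poly(I:C). WT control medium and Poly(I:C) libraries again lay above the rest. Gadd45a rose by 1.51 in WT control medium, had −0.35, adjusted p = 0.263 in KO control medium, and rose by 1.69 with Poly(I:C). Of its 1764 exon bases, 337 are shared with a transcript on the opposite strand, E230016M11Rik, which stood at 14 deposited units at most.

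The genes that fell serve other ends. Trib3 encodes a pseudokinase that restrains AKT and ATF4. Trib3 stood at 35.6 and 36.7 CPM in untreated WT cells and 29.4 and 22.8 in untreated KO cells, at 10.2 and 10.5 CPM in WT and 10.7 and 6.75 in KO control medium, and at 6.198 and 6.54 CPM with Poly(I:C). All 6 treated libraries lay below all 4 untreated ones. Trib3 fell by 1.80 (SE 0.19, adjusted p = 1.87e-05) in WT and fell by 1.60 (SE 0.19, adjusted p = 0.000535) in KO control medium, and the interaction did not pass (0.20, adjusted p = 0.581). Sesn2 encodes sestrin 2, which restrains mTORC1. Sesn2 measured 59.8 and 64.7 CPM untreated and 22.1 and 23.9 in control medium in the WT libraries, against 58.4 and 53.9 untreated, 43.4 and 36.3 in control medium and 14.6 and 16.6 with Poly(I:C) in the KO libraries. WT control medium and Poly(I:C) libraries were the lowest, without overlap with the others. Sesn2 fell by 1.43 in WT and fell by 0.50 in KO control medium, with an interaction of 0.93 (adjusted p = 0.000822), and fell by 1.34 from KO control medium to Poly(I:C).

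Atf5 encodes a transcription factor whose translation, like that of ATF4, is favoured when eIF2 is phosphorylated. Atf5 was at 53.9 and 64.95 CPM in the untreated WT libraries, 55.1 and 51.1 in untreated KO, 23.2 and 26.4 in WT control medium, 55.2 and 41.9 in KO control medium and 24.4 and 22.2 in KO with Poly(I:C). The KO control medium libraries overlapped the untreated ones and the other treated libraries lay lower. Atf5 fell by 1.26 in WT control medium, measured −0.14, adjusted p = 0.537 in KO control medium, and fell by 1.04 with Poly(I:C). It shares 82 of 1993 exon bases with Il4i1 on the opposite strand. Vldlr encodes the very low density lipoprotein receptor, a target of ATF4 under ER stress. Vldlr stood at 18.1 and 16.4 CPM in untreated WT cells and 18.8 and 20.95 in untreated KO cells, at 6.85 and 5.65 CPM in WT and 18.6 and 18.1 in KO control medium, and at 3.53 and 5.11 CPM with Poly(I:C). KO control medium again stayed with the untreated libraries. Vldlr fell by 1.45 in WT control medium, had −0.11, adjusted p = 0.697 in KO, and fell by 2.08 with Poly(I:C). The interaction was 1.34 (SE 0.24, adjusted p = 0.0014).

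Ddit3 encodes CHOP, a factor tied to cell death under prolonged ER stress. Ddit3 measured 47.7 and 55.98 CPM untreated and 37.4 and 37.4 in control medium in the WT libraries, against 36.5 and 34.9 untreated, 18.6 and 15.8 in control medium and 33.96 and 31.6 with Poly(I:C) in the KO libraries. KO control medium libraries were the lowest. Ddit3 fell by 1.05 (SE 0.11, adjusted p = 0.000192) in KO and fell by 0.47 (SE 0.11, adjusted p = 0.00302) in WT control medium, and rose by 0.93 from KO control medium to Poly(I:C) (0.22, adjusted p = 0.0861, with totals alone), with −0.12, adjusted p = 0.318 against untreated KO. Ddit3 shares 68 of 1713 exon bases with Mars on the opposite strand. It shares 105 with a second annotated entry of the same name on the same strand, so part of its values may be uncertain. Atf4 itself ranged over 130.0 to 236 CPM, fell by 0.44 in KO control medium (adjusted p = 0.0501 in a fit on the compared groups only), measured −0.18, adjusted p = 0.163 in WT, and its rise of 0.59 with Poly(I:C) against KO control medium turned to −0.13 with totals alone. Chac1, a glutathione-degrading enzyme (1.18 to 4.83 CPM), fell by 1.17 in WT and fell by 0.95 in KO control medium, the latter not called in a fit on the compared groups only (adjusted p = 0.124). Asns, asparagine synthetase (36.8 to 87.7 CPM), fell by 0.79 in WT control medium and had −0.35, adjusted p = 0.124 in KO. Against KO control medium, Poly(I:C) left Chac1 at −0.46, adjusted p = 0.158, and Asns fell by 0.43 (−0.23, adjusted p = 0.22, with the deposited scaling).

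**Figure D2:**
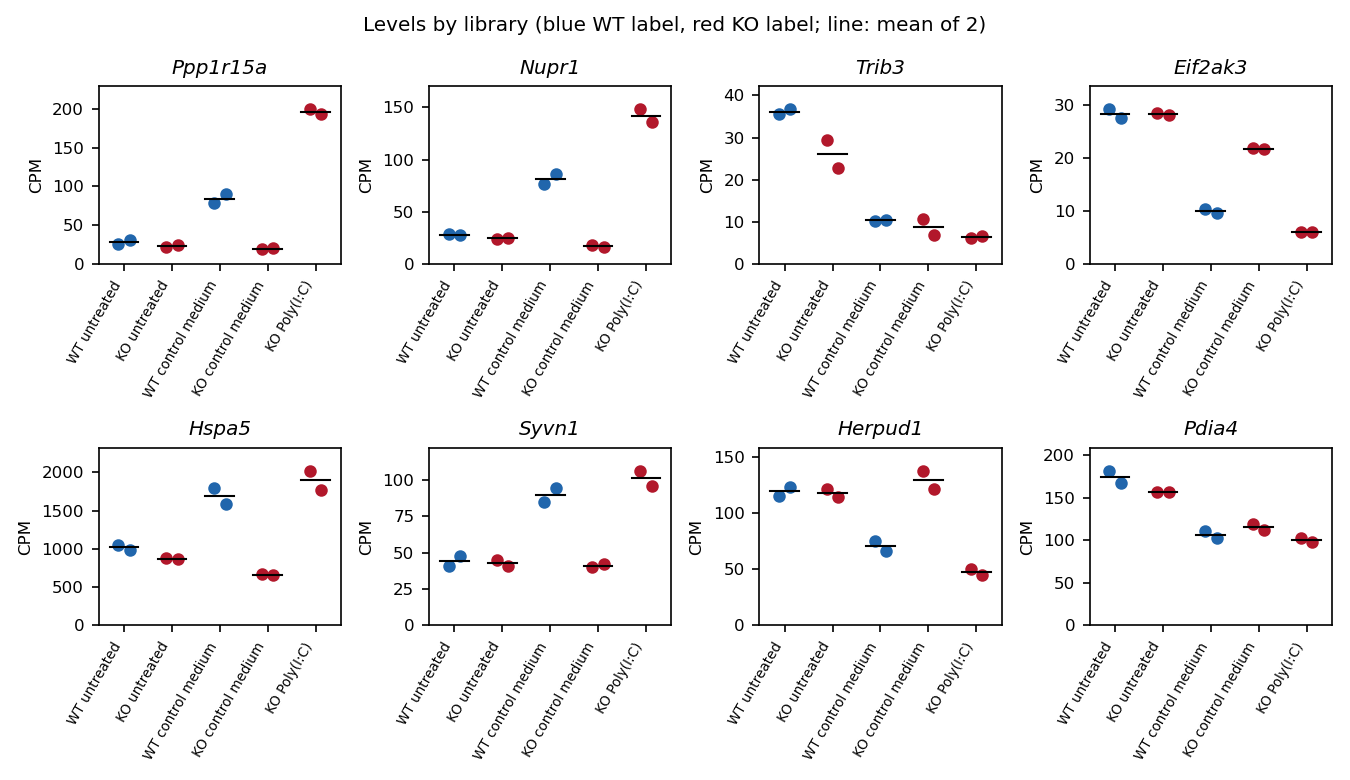
TMM-scaled CPM of 8 of the 33 genes, chosen after their values were seen, by group. Points are the 2 libraries of each group, blue for the WT label and red for the KO label, and the line is their mean. Ppp1r15a, Nupr1, Hspa5 and Syvn1 are highest in WT control medium and Poly(I:C), Eif2ak3 and Herpud1 lowest there, and Trib3 and Pdia4 are lower in every treated group than in untreated cells.

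The ER folding and degradation genes were spread more narrowly than the ATF4-type genes. Co-chaperones, isomerases and degradation genes each held members that rose and members that fell with Poly(I:C) against KO control medium under TMM. The falls of the co-chaperone Dnajc3 and the isomerase Pdia4 did not pass with the deposited scaling (−0.034, adjusted p = 0.754, and −0.0041, adjusted p = 0.972) or with rlog values. The ER stress response element (ERSE), CCAAT and CCACG set 9 bases of any kind apart, is bound by ATF6 with NF-Y. It was found in 8 of 16 ER genes with a window (50%), in 0 of the 11 ATF4-type genes and in 0 of the 3 sensor genes with a window. Of all windows, counted singly rather than by gene, 0.119% held it. Its shorter form ERSE-II, ATTGG and CCACG set 1 base apart, was found in Herpud1 and Dnajb11, the latter after the start, and in 0.0365% of all windows. The XBP1-type element TGACGTGG was in no window of the 30 genes and in 0.676% of all windows. Stretches of 100 bases are shown for the chaperone and the ligase that rose most and for Herpud1, which fell, with ERSE, ERSE-II and the C/EBP and ATF element in capitals: Hspa5 (chr2:34771985-34772084, plus strand), Syvn1 (chr19:6046476-6046575, plus strand) and Herpud1 (chr8:94386303-94386402, plus strand). In Herpud1 the first run in capitals is the C/EBP and ATF element and the second is ERSE-II.
Hspa5: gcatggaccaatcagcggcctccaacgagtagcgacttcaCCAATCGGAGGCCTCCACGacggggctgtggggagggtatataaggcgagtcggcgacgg
Syvn1: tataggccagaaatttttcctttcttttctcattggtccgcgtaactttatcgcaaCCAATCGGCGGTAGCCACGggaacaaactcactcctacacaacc
Herpud1: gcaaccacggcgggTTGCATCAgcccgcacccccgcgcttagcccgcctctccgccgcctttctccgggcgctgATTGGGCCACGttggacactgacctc

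Over the 10 ER genes with ERSE or ERSE-II, 6 rose and 2 fell in WT control medium under TMM, and over the 6 whose window held neither, 1 rose and 2 fell. With Poly(I:C) against KO control medium, 8 of the 10 rose and 2 fell, and 3 of the 6 rose and 1 fell. Over all genes 33.1% rose and 32.8% fell in WT control medium and 32.5% rose and 36.9% fell with Poly(I:C). These counts were made under TMM alone, and both sets were measured in the same libraries.

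**Figure D3:**
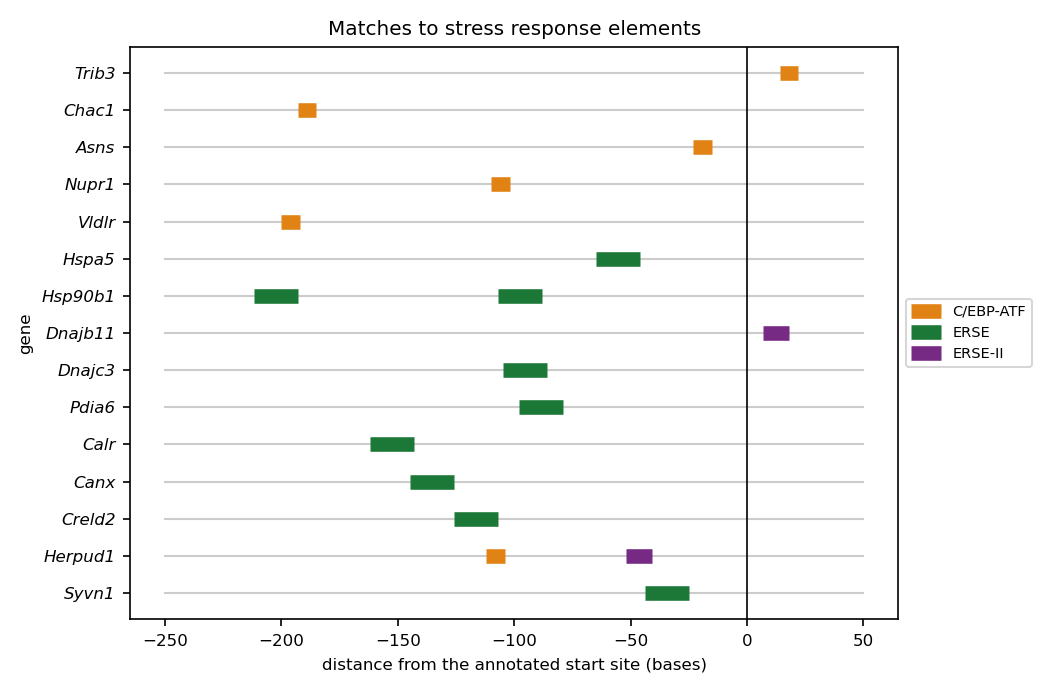
Positions of matches to ERSE, ERSE-II and the C/EBP and ATF element in the promoter windows of the 15 genes with a match, from 250 bases before to 50 bases after the annotated start (vertical line), in bases. Grey lines are the windows and coloured boxes the matches, drawn to scale. ERSE boxes lie before the start in 8 ER genes, with a pair in Hsp90b1, and the matches of Trib3 and Dnajb11 lie after it.

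Hspa5 (ENSMUSG00000026864) encodes BiP, the main HSP70 chaperone of the ER and the protein that holds the sensors inactive. Hspa5 was at 1050.0 and 992 CPM in the untreated WT libraries, 877 and 869.9 in untreated KO, 1802 and 1588 in WT control medium, 670.0 and 652 in KO control medium and 2023 and 1776 in KO with Poly(I:C). The 4 libraries of WT control medium and Poly(I:C) lay above the untreated ones and the KO control medium libraries below them, without overlap. Hspa5 rose by 0.73 (SE 0.09, adjusted p = 5.09e-05) in WT control medium (0.19, adjusted p = 0.104, with totals alone) and fell by 0.40 (SE 0.09, adjusted p = 0.0122, 0.058 to 0.0908 without any 1 library) in KO control medium. The interaction was −1.13 (adjusted p = 6.48e-05; −0.64 with totals alone), and from KO control medium to Poly(I:C) Hspa5 rose by 1.52 (SE 0.09, adjusted p = 1.97e-07), or 2.87-fold.

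Its co-chaperones moved less. Dnajb11 encodes an ER J-protein that hands substrates to BiP. Dnajb11 stood at 110.1 and 102 CPM in untreated WT cells and 94.97 and 99.3 in untreated KO cells, at 147 and 145 CPM in WT and 88.5 and 89.8 in KO control medium, and at 170.5 and 151 CPM with Poly(I:C). KO control medium libraries were the lowest and Poly(I:C) libraries the highest. Dnajb11 rose by 0.46 in WT control medium (−0.0716 with totals alone) and by 0.85 with Poly(I:C) against KO control medium (0.13, adjusted p = 0.166, with totals alone), and the interaction was −0.58 (−0.0907, adjusted p = 0.527, with totals alone). Dnajb9 encodes ERdj4, a J-protein that also assists degradation. Dnajb9 measured 23.96 and 32.4 CPM untreated and 35.5 and 31.6 in control medium in the WT libraries, against 30.2 and 33.98 untreated, 23.97 and 23.5 in control medium and 26.97 and 28.2 with Poly(I:C) in the KO libraries. The groups lay within a narrow range, with KO control medium at its lower end. Dnajb9 fell by 0.43 in KO control medium, a call lost whichever of the compared libraries was left out. It had 0.26, adjusted p = 0.107 in WT, with an interaction of −0.70 (−0.20, adjusted p = 0.353, with totals alone). Dnajc3, the J-protein p58IPK (76.9 to 115 CPM), fell by 0.29 in WT and fell by 0.27 in KO control medium, neither of which passed with the deposited scaling (adjusted p = 0.214 and 0.059). Hsp90b1, the ER form of HSP90 (699.8 to 1189 CPM), measured 0.08, adjusted p = 0.625 in WT control medium, and its rise of 0.47 with Poly(I:C) turned to −0.25 with totals alone.

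Hyou1 encodes GRP170, the nucleotide exchange factor of BiP. Hyou1 was at 173 and 184 CPM in the untreated WT libraries, 159 and 164 in untreated KO, 210.2 and 183 in WT control medium, 127 and 129 in KO control medium and 163 and 148 in KO with Poly(I:C). All other libraries lay above those of KO control medium. Hyou1 fell by 0.33 in KO control medium, a call lost whichever of the compared libraries was left out. Its interaction of −0.47 and its rise of 0.28 with Poly(I:C) turned to 0.0259 and −0.44 with totals alone. Sdf2l1, a partner of the J-proteins (25.8 to 51.3 CPM), measured −0.15, adjusted p = 0.422 in WT and −0.42, adjusted p = 0.0903 in KO control medium. Manf encodes a secreted ER protein that binds BiP. Manf stood at 89.95 and 87.3 CPM in untreated WT cells and 79.3 and 73.4 in untreated KO cells, at 116 and 100.1 CPM in WT and 56.6 and 52.8 in KO control medium, and at 121 and 84.7 CPM with Poly(I:C). The lowest values were those of KO control medium. Manf fell by 0.48 in KO control medium, a call lost whichever of the compared libraries was left out. It measured 0.28, adjusted p = 0.111 in WT, and rose by 0.89 with Poly(I:C) against KO control medium (0.17, adjusted p = 0.32, with totals alone). It shares 146 of 3524 exon bases with Dcaf1 on the opposite strand. Creld2 encodes an ER stress-inducible secreted protein with isomerase activity. Creld2 measured 29.3 and 28.3 CPM untreated and 44.8 and 38.4 in control medium in the WT libraries, against 27.1 and 22.5 untreated, 22.9 and 20.5 in control medium and 38.8 and 34.03 with Poly(I:C) in the KO libraries. WT control medium and Poly(I:C) libraries were higher than KO control medium. Creld2 rose by 0.52 in WT control medium and rose by 0.55 with Poly(I:C) against untreated KO, but these turned to −0.0074 and −0.20 with totals alone.

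The disulfide isomerases, which form and rearrange disulfide bonds, did not move together. Pdia4 encodes ERp72. Pdia4 was at 182 and 168 CPM in the untreated WT libraries, 157 and 157 in untreated KO, 111 and 103 in WT control medium, 119 and 112 in KO control medium and 102 and 97.8 in KO with Poly(I:C). All 6 treated libraries lay below all 4 untreated ones, opposite to Hspa5 in WT cells. Pdia4 fell by 0.71 (SE 0.07, adjusted p = 1.37e-05) in WT and fell by 0.44 (SE 0.07, adjusted p = 0.00275) in KO control medium, and the interaction did not pass (0.27, adjusted p = 0.0551). Pdia6 encodes the isomerase P5. Pdia6 stood at 409 and 392 CPM in untreated WT cells and 377 and 382 in untreated KO cells, at 511 and 439 CPM in WT and 301 and 278 in KO control medium, and at 483 and 397 CPM with Poly(I:C). Both KO control medium libraries lay below the rest. Pdia6 fell by 0.39 in KO control medium, a call lost whichever of the compared libraries was left out. It had 0.24, adjusted p = 0.063 in WT, with an interaction of −0.63 (−0.14, adjusted p = 0.485, with totals alone). Its rise of 0.60 with Poly(I:C) turned to −0.12 with totals alone. Pdia3, or ERp57, which works on glycoproteins with Calr and Canx (565 to 798 CPM), had 0.25, adjusted p = 0.0513 in WT and −0.04, adjusted p = 0.824 in KO control medium, and its rise of 0.36 with Poly(I:C) turned to −0.36 with totals alone.

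Calr and Canx encode calreticulin and calnexin, the lectin chaperones that retain glycoproteins until they are folded. Calr measured 935 and 828 CPM untreated and 1202 and 1054 in control medium in the WT libraries, against 785 and 836 untreated, 693 and 679 in control medium and 985 and 872 with Poly(I:C) in the KO libraries. KO control medium libraries were the lowest. The rise of Calr by 0.36 in WT control medium turned to −0.18 with totals alone, and that of 0.43 with Poly(I:C) against KO control medium to −0.28. Its value in KO control medium was −0.24, adjusted p = 0.111. Canx was at 563 and 538 CPM in the untreated WT libraries, 535 and 564 in untreated KO, 661 and 607 in WT control medium, 505 and 508 in KO control medium and 611 and 608 in KO with Poly(I:C). All groups lay within a narrow range. The rises of Canx by 0.20 in WT control medium and 0.27 with Poly(I:C), and its interaction of −0.32, turned to −0.33, −0.45 and 0.18 with totals alone.

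In WT control medium under TMM, degradation genes had both the largest rise and the largest fall of the ER group, while with Poly(I:C) against KO control medium Hspa5 rose more than Syvn1. Syvn1 (ENSMUSG00000024807) encodes HRD1, the ubiquitin ligase of ER-associated degradation. Syvn1 stood at 40.7 and 47.8 CPM in untreated WT cells and 44.8 and 41.1 in untreated KO cells, at 84.9 and 94.0 CPM in WT and 40.3 and 41.8 in KO control medium, and at 106 and 95.6 CPM with Poly(I:C). All 4 libraries of WT control medium and Poly(I:C) lay above the other 6, which overlapped. Syvn1 rose by 1.02 (SE 0.10, adjusted p = 1.04e-05) in WT control medium, measured −0.06, adjusted p = 0.702 in KO, and rose by 1.29 (SE 0.10, adjusted p = 1.44e-06) from KO control medium to Poly(I:C). It shares 91 of 4859 exon bases with Mrpl49 on the opposite strand. Herpud1 (ENSMUSG00000031770) encodes HERP, a membrane component of the same ligase complex. Herpud1 measured 115 and 124 CPM untreated and 75.6 and 66.3 in control medium in the WT libraries, against 121 and 115 untreated, 138 and 121 in control medium and 50.3 and 44.9 with Poly(I:C) in the KO libraries. Its order was the reverse, with WT control medium and Poly(I:C) below the other 6 libraries. Herpud1 fell by 0.75 (SE 0.10, adjusted p = 7.29e-05) in WT control medium, measured 0.13, adjusted p = 0.388 in KO, and fell by 1.44 (SE 0.10, adjusted p = 5.27e-07) with Poly(I:C) against KO control medium. The interactions were −1.08 (adjusted p = 0.000184) for Syvn1 and 0.88 (adjusted p = 0.000567) for Herpud1.

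Sel1l encodes the adaptor that holds HRD1 in its complex. Sel1l was at 226 and 226 CPM in the untreated WT libraries, 218 and 234 in untreated KO, 295 and 279 in WT control medium, 227 and 232 in KO control medium and 280.3 and 294 in KO with Poly(I:C). The KO control medium libraries stayed with the untreated ones. The rises of Sel1l by 0.34 in WT control medium and 0.32 with Poly(I:C) turned to −0.19 and −0.39 with totals alone. Edem1, which extracts misfolded glycoproteins (186 to 268 CPM), fell by 0.19 in WT (−0.0377, adjusted p = 0.707, with the deposited scaling) and fell by 0.44 in KO control medium. Its rise of 0.25 with Poly(I:C) against KO control medium turned to −0.47 with totals alone, and its fall of 0.19 against untreated KO to 0.0053 with the deposited scaling.

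**Figure D4:**
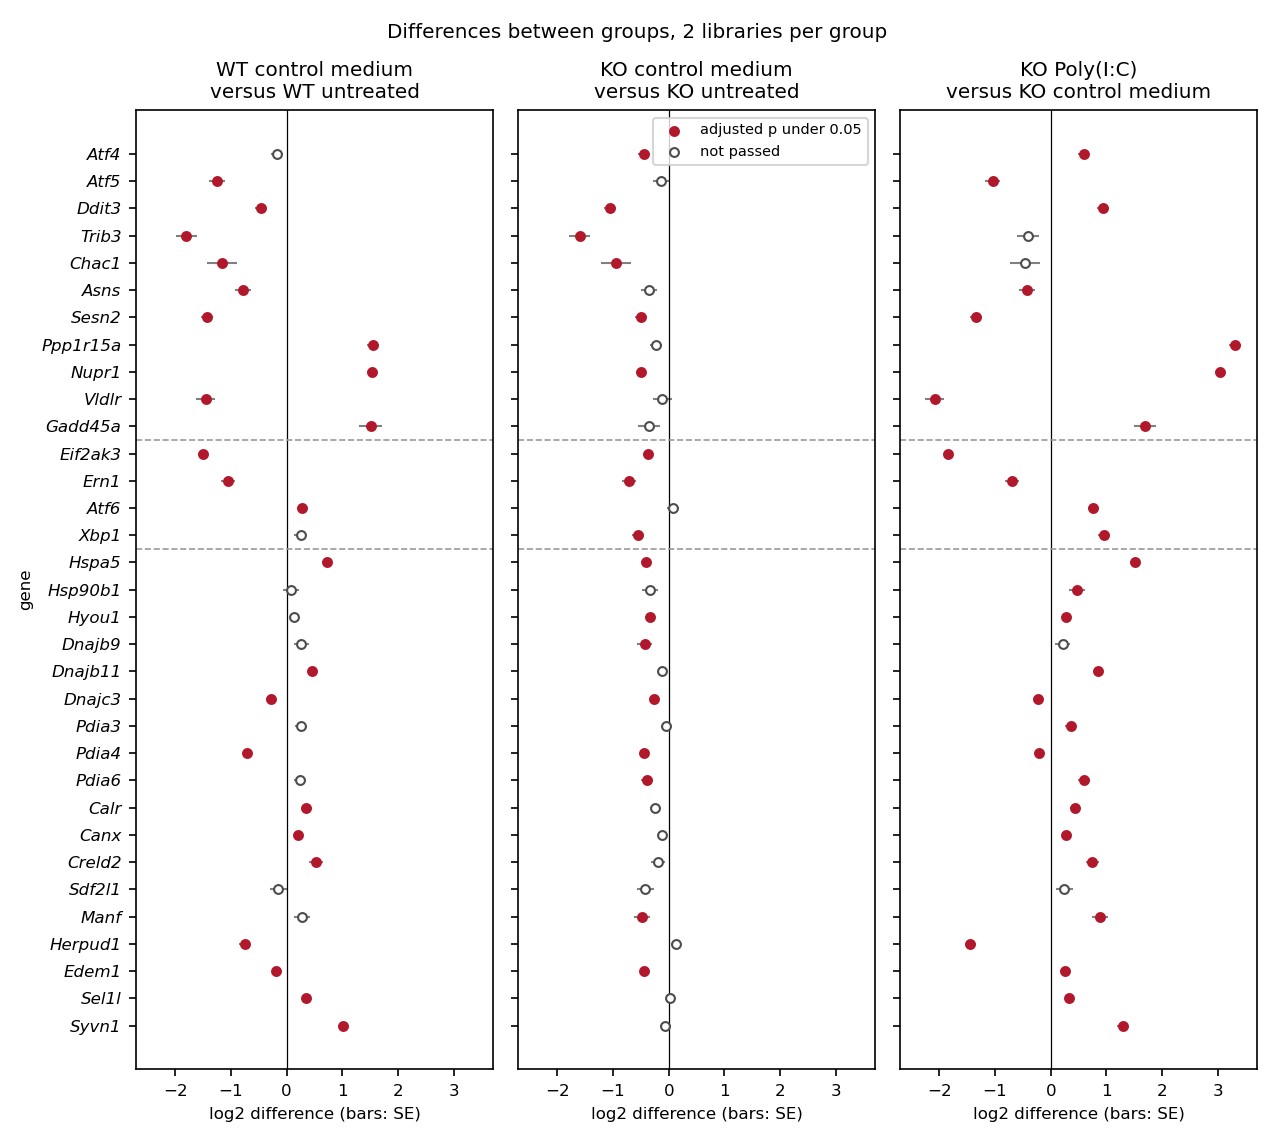
Log2 differences of the 33 genes in 3 comparisons under TMM scaling, with SE bars from the fit across all genes, 2 libraries per group. Filled red points passed at an adjusted p under 0.05 (24, 17 and 29 genes) and open points did not, and dashed lines divide ATF4-type genes, sensors and ER genes. In the middle panel every red point lies below 0. In the outer panels many ER genes above 0 lie below it when libraries are scaled by totals alone, which leaves 1 higher and 11 lower on the left and 2 higher and 11 lower on the right.

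Further genes of the same pathways were counted in 6 lists, each given for WT control medium, KO control medium and Poly(I:C) against KO control medium in that order, with the largest called log2 differences of the first and last comparison. Over all genes 33.1% rose and 32.8% fell in the first, 10.9% and 9.08% in the second and 32.5% and 36.9% in the third, 65.8%, 20.0% and 69.4% in all. Of 14 genes that control eIF2, 5 rose and 1 fell, 1 rose and 0 fell, and 6 rose and 6 fell. In WT control medium the largest rises were Eif2ak2 (1.81), Ppp1r15b (1.40) and Nck1 (0.80) and the fall was Eif2ak4 (−1.27), and the share called lay below that of all genes. The largest rises with Poly(I:C) were Eif2ak2 (2.45), Ppp1r15b (2.21) and Eif2s1 (0.51) and falls Eif2ak4 (−1.31), Impact (−0.70) and Eif2b4 (−0.61), that of Eif2s1 turning to −0.20 with totals alone and that of Eif2b4 not passing with the deposited scaling (−0.41, adjusted p = 0.0715). Eif2ak2 encodes PKR, the eIF2 kinase that senses double-stranded RNA, Eif2ak4 the amino acid sensor GCN2, and Ppp1r15b the constitutive counterpart of GADD34. Of 42 further genes of the ATF4 and amino acid response that were tested (45 listed), 8 rose and 21 fell, 4 rose and 9 fell, and 12 rose and 21 fell. Slc7a11 (3.68), Sqstm1 (1.53) and Slc3a2 (1.48) led the rises in WT control medium and Aldh18a1 (−1.79), Mars (−1.52) and Yars (−1.25) the falls. For Poly(I:C) these were Cebpb (2.15), Slc7a11 (2.07) and Jdp2 (1.53), and Slc6a9 (−1.76), Iars (−1.48) and Mars (−1.39). Replicates of Cebpb lay far apart, at 49.4 and 25.3 CPM with Poly(I:C) and 11.3 and 5.48 in KO control medium, so its rank is uncertain. Slc7a11 encodes the cystine transporter, and Mars, Yars and Iars encode aminoacyl-tRNA synthetases.

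Of 34 genes of ER translocation, glycosylation and signal peptidase, 11 rose and 3 fell, 1 rose and 10 fell, and 16 rose and 2 fell. In WT control medium Srpr (1.06), Serp1 (0.71) and Spcs3 (0.48) rose most, Spcs3 turning to −0.0558 and Serp1 to 0.18 (adjusted p = 0.233) with totals alone. Sec11c (−0.54), Sec63 (−0.44) and Rpn1 (−0.29) fell most, Rpn1 not passing with the deposited scaling (−0.13, adjusted p = 0.328). In Poly(I:C) cells Srpr (0.91), Ssr3 (0.84) and Sec61g (0.60) rose most, Sec61g turning to −0.12 and Ssr3 to 0.13 (adjusted p = 0.161) with totals alone, and Sec11c (−0.54) and Srprb (−0.52) fell. Srpr encodes the receptor of the signal recognition particle and Sec11c a signal peptidase subunit. Of 33 further folding genes of 34 listed, 5 rose and 14 fell, 1 rose and 8 fell, and 7 rose and 10 fell. In WT control medium Dnajc1 (0.73), Sdf2 (0.39) and Tmx1 (0.35) rose most, Sdf2 and Tmx1 turning to −0.14 and −0.18 with totals alone, and Cnpy4 (−1.69), Uggt2 (−1.41) and Cdnf (−1.0) fell most, Cdnf not passing with the deposited scaling (adjusted p = 0.0514). The rises with Poly(I:C) were Pdia5 (0.49), Dnajc1 (0.47) and Erp44 (0.40), which turned to −0.21, −0.24 and −0.31 with totals alone, and the falls Cdnf (−1.24), Uggt2 (−1.24) and Cnpy4 (−1.16). Uggt2 encodes a homologue of the glucosyltransferase that tests glycoprotein folding. Uggt2 (0.1175 to 1.135 CPM) and Cdnf (0.22 to 1.36 CPM) stood near the floor, with lowest deposited values of 4 and 8 units, so their falls rest on few units.

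Of 26 further degradation genes, 14 rose and 3 fell, 2 rose and 2 fell, and 9 rose and 5 fell. Ube2j1 (0.89), Rnf139 (0.83) and Nploc4 (0.66) rose most in WT control medium and Svip (−1.89), Derl1 (−0.37) and Edem3 (−0.27) fell. Nploc4 was at 0.13 (adjusted p = 0.125) with totals alone, and with the deposited scaling Derl1 was at −0.22 (adjusted p = 0.0637) and Edem3 at −0.11 (adjusted p = 0.428). In Poly(I:C) cells Rnf139 (1.35), Ube2j2 (0.83) and Faf2 (0.38) rose most, Faf2 turning to −0.34 and Ube2j2 to 0.12 (adjusted p = 0.451) with totals alone. Svip (−1.18), Ngly1 (−0.63) and Edem3 (−0.43) fell most, Edem3 not passing with the deposited scaling (−0.22, adjusted p = 0.123) nor Svip with no filter (adjusted p = 0.0587). Ube2j1 encodes a ubiquitin-conjugating enzyme of the ER membrane, and Svip an inhibitor of ER-associated degradation. Svip too stood near the floor (0.22 to 2.98 CPM, lowest deposited value 8 units). Of 28 tested genes of sensor accessory factors and COPII coats (29 listed), 14 rose and 9 fell, 3 rose and 7 fell, and 12 rose and 8 fell. Traf2 (1.56), Sec24b (1.16) and Sec23b (0.94) rose most in WT control medium and Creb3l2 (−2.14), Creb3l1 (−1.52) and Mbtps2 (−0.63) fell most, and with Poly(I:C) these were Sec24b (1.69), Sec23b (1.52) and Traf2 (1.40), and Creb3l1 (−0.91), Creb3l2 (−0.86) and Mbtps1 (−0.80). Traf2 encodes an adaptor recruited by IRE1, and Sec23b and Sec24b encode COPII coat proteins. Leaving out 1 library ended, for 1 or more libraries, the calls of Cdnf, Edem3, Rpn1, Tmx1 and Uggt2 in WT control medium and of Cdnf, Eif2b4, Pdia5, Svip and Uggt2 with Poly(I:C).

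Median log2 differences in WT control medium and with Poly(I:C) were 0.12 and 0.11 for eIF2 control, −0.40 and −0.23 for the amino acid response, 0.10 and 0.19 for translocation. They were −0.19 and 0.04 for further folding, 0.26 and 0.12 for further degradation, 0.27 and 0.04 for accessory factors and COPII, beside −0.0054 and −0.06 over all genes. The splits of these lists moved with the scaling, here for WT control medium and then Poly(I:C). The eIF2 list held 4 higher and 10 lower, then 2 higher and 12 lower, with totals alone, and 8 higher and 1 lower, then 8 higher and 3 lower, with the deposited scaling. The amino acid list held 6 higher and 32 lower, then 8 higher and 28 lower, with totals alone, and 11 higher and 17 lower, then 14 higher and 15 lower, with the deposited scaling. Translocation genes came to 1 higher and 28 lower, then 1 higher and 29 lower, with totals alone, and 18 higher and 2 lower, then 26 higher and 2 lower, with the deposited scaling. Further folding genes came to 1 higher and 28 lower, then 0 higher and 31 lower, with totals alone, and 11 higher and 11 lower, then 14 higher and 9 lower, with the deposited scaling. Further degradation genes came to 2 higher and 15 lower, then 1 higher and 24 lower, with totals alone, and 16 higher and 1 lower, then 15 higher and 2 lower, with the deposited scaling. Accessory and COPII genes came to 5 higher and 14 lower, then 4 higher and 23 lower, with totals alone, and 15 higher and 5 lower, then 14 higher and 5 lower, with the deposited scaling.

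Markers of other cells that a marrow culture could hold summed to at most 523 CPM per list, and several lists moved with the groups. The 11 neutrophil markers summed to 22.2 to 41.9 CPM in untreated WT, 28.5 to 32.7 in untreated KO, 87.7 to 120.8 in WT control medium, 17.2 to 21.7 in KO control medium and 105.2 to 110.7 with Poly(I:C), against at least 25720.0 CPM for the macrophage list. This order, with WT control medium and Poly(I:C) high and KO control medium low, was that of Ppp1r15a, Nupr1 and Hspa5. Syvn1 was high in the same groups, but its KO control medium libraries overlapped the untreated ones. The 7 dendritic cell markers summed to 1.91 to 2.68 CPM in WT control medium, 1.65 with Poly(I:C) and 0.397 to 0.72 in the other groups, and the 7 mast cell and basophil markers to 1.23 to 1.67, 1.57 to 1.65 and 0.0324 to 0.397. Cpa3, Cma1, Fcer1a and Mcpt8 were at 0 in all 10 libraries. The 7 erythroid and platelet markers summed to 218.4 to 237 CPM in KO control medium, where Hspa5 was lowest, and 312.1 to 522.9 elsewhere. The part of these lists in the values of the stress genes was not tested. Among 12 plasma and B cell markers, a cell type rich in ER chaperones, 4 reached 1 CPM in each group and Mzb1 was at 0 in every library. This list summed to 134.7 to 174.5 CPM, highest in KO control medium, and its part was not tested either. Of 7 T and NK cell markers, Cd3e, Cd3g, Cd8a, Ncr1 and Trac were at 0 in all 10 libraries. The sum of the T and NK cell list was 1.32 to 1.5 CPM with Poly(I:C) and at most 0.508 elsewhere, and that of 10 stromal markers 28.6 to 38.6 CPM in the untreated and KO control medium libraries and 36.6 to 47.5 in those of WT control medium and Poly(I:C). In bulk RNA, fewer cells of a type and less RNA per cell cannot be told apart.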

How the data were processed

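Stranded mRNA libraries (TruSeq, per the labels' protocols) were made from 10 macrophage samples. Per the submitters' processing notes, the tools were STAR 2.4.0d, Trim Galore 0.2.8, DESeq2 and RSEM 1.2.12, with no roles stated. Neither a genome build nor the strand setting of the counting is given in the sources used here. One table deposited by the authors holds whole numbers, treated here as signal. The 75th percentile was 25 in every library, so the values were taken as reads scaled to a common upper quartile and rounded. The authors also deposited rlog values on a log2 scale, used as an alternative. Genes were named by GENCODE M21 (GRCm38), in which 44585 of 45318 identifiers matched. Signal was converted to CPM with TMM factors (30% of M and 5% of A values trimmed). The 13171 genes that reached a value of 10 in 2 or more libraries were tested with limma 3.58.1 in R 4.3.3, with a trend, on log2(CPM + 0.1), which understates changes of low genes. The fit held 1 coefficient per group and all 10 libraries (5 residual degrees of freedom). A gene was called, or said to rise or fall, at a Benjamini-Hochberg adjusted p under 0.05 over all genes tested, with no fold threshold. The script was tested on simulated data. The 33 members and all lists were chosen with earlier results of these data known. Values of every library are given for the 4 sensors and factors, the 6 ATF4-type and 8 ER genes with the widest range of group means, and every gene called in the interaction. In each further list the 3 genes with the largest called change in each direction are named. Scaling by totals alone or as deposited, other filters, pseudocount, samples, the replicate block, rlog values and leaving out each library were tried. Protein sequences were not used here.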

Additional observations from a re-analysis of the deposited data

Results flagged for a closer look

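The response to control medium, control medium minus untreated, differed between the WT and KO labels for 21 of the 33 genes by the interaction test across all genes (limma, Benjamini-Hochberg adjusted p under 0.05), beside 45.7% of all genes tested. Values are the KO response minus the WT response on the log2 scale, under TMM scaling. Among the ATF4-type genes the KO response was lower for Nupr1 −2.02, Gadd45a −1.87, Ppp1r15a −1.78 and Ddit3 −0.59, and higher for Vldlr 1.34, Atf5 1.11 and Sesn2 0.93. Nupr1 had log2 differences of 1.53 in WT and −0.49 in KO cells, and Vldlr −1.45 in WT and −0.11 in KO. In the sensor group the interaction was 1.13 for Eif2ak3 and −0.81 for Xbp1. Of the ER genes, the KO response was lower for Hspa5 −1.13, Hyou1 −0.47, Dnajb9 −0.70, Dnajb11 −0.58, Pdia6 −0.63, Calr −0.60, Canx −0.32, Creld2 −0.71, Manf −0.76, Sel1l −0.32 and Syvn1 −1.08, of which Hyou1, Canx and Sel1l turned sign with totals alone. It was higher for Herpud1 0.88. With totals alone Calr, Creld2, Ddit3, Dnajb11, Dnajb9, Manf, Pdia6 and Xbp1 did not pass this test. The calls rest on the labels of genotype, and Tlr4 transcript did not mark them. The summed neutrophil, dendritic cell and mast cell markers moved with the same groups, and their part was not tested.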

How the results depend on the processing

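The counts of the 33 genes that passed stayed within 1.5 times those reported under library totals alone, the deposited scaling, a pseudocount of 1 CPM, no filter, a minimum value of 50, a fit on the compared groups only, the replicate block and the rlog values, in all 7 comparisons. Leaving out 1 library at a time, with the lone library of a group taken to vary like the others, gave 20 to 24 genes for WT control medium versus WT untreated, 5 to 10 for KO control medium versus KO untreated (17 with all libraries), 0 in each case for untreated KO versus WT, 23 to 26 for KO versus WT control medium, 18 to 24 for the interaction, and 25 to 28 and 20 to 24 for Poly(I:C) versus KO control medium and versus KO untreated. For KO control medium the lowest count, 5, came without KO control medium replicate 2, and those without KO untreated replicate 1, KO untreated replicate 2 and KO control medium replicate 1 were 7, 7 and 10. Fewer samples stood behind each of these fits. With the replicate number as a block the counts were 28, 20, 0, 29, 25, 29 and 26 in the order of the comparisons above. It ended no call, but it fits a replicate shift common to all groups and so cannot represent a pairing within a genotype label. Differences between the replicates of a group correlated with those of another at 0.171 to 0.315 within a genotype label and at 0.0128 to 0.111 across labels. With 2 replicates per group and no source for the numbers in the labels, they were not taken to pair samples. Directions of single genes depended on the scaling. Totals alone, which moves the median of all genes as given above, turned the sign of 50 values, by its construction toward lower values where treated libraries had larger totals. Their values were, for WT control medium versus WT untreated, Atf6 −0.26, Hsp90b1 −0.45, Hyou1 −0.40, Dnajb11 −0.0716, Pdia3 −0.28, Pdia6 −0.29, Calr −0.18, Canx −0.33, Creld2 −0.0074, Sel1l −0.19, Sdf2 −0.14, Spcs3 −0.0558 and Tmx1 −0.18. For KO versus WT control medium they were Atf6 0.23, Pdia3 0.0675, Canx 0.16, Sdf2l1 0.0048, Edem1 0.29 and Sel1l 0.16, and for the interaction Hyou1 0.0259, Canx 0.18 and Sel1l 0.18. For Poly(I:C) versus KO control medium they were Atf4 −0.13, Hsp90b1 −0.25, Hyou1 −0.44, Dnajb9 −0.50, Pdia3 −0.36, Pdia6 −0.12, Calr −0.28, Canx −0.45, Sdf2l1 −0.47, Edem1 −0.47, Sel1l −0.39, Dnajc1 −0.24, Eif2s1 −0.20, Erp44 −0.31, Faf2 −0.34, Pdia5 −0.21 and Sec61g −0.12, and versus KO untreated Atf4 −0.61, Xbp1 −0.36, Hsp90b1 −0.62, Dnajb11 −0.0292, Pdia3 −0.44, Pdia6 −0.55, Calr −0.56, Canx −0.61, Creld2 −0.20, Manf −0.35 and Sel1l −0.41. The deposited scaling turned 1, Edem1 for Poly(I:C) versus KO untreated, to 0.0053. No other alternative turned a sign that was called, but calls of named genes were lost without a turn, 26 with totals alone, 14 with the deposited scaling, 13 with no filter, 10 in fits on the compared groups only and 7 with rlog values. The planned edgeR and DESeq2 fits were not run, because the deposited values are rounded after scaling and whole reads are not kept. Rounding weighs most on low values. Chac1 had the lowest deposited value of the 33 genes, 40 units, where the shift by rounding is small. With 2 libraries per group the error of each group mean is itself poorly known.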

Other observations

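Heat shock genes, most of them cytosolic rather than of the ER, mostly rose in WT control medium and with Poly(I:C) under TMM scaling. The list also holds the mitochondrial chaperones Hspd1 and Hspe1 and the transcription factors Hsf1 and Hsf2. Of 19 genes, 14 rose and 1 fell in WT control medium, with a median log2 difference of 0.97, beside 0.25 for the 18 ER genes and −0.0054 over all genes, of which 33.1% rose and 32.8% fell. In KO control medium 6 rose and 1 fell, beside 10.9% and 9.08% of all genes, and with Poly(I:C) against KO control medium 13 rose and 3 fell, beside 32.5% and 36.9%. With totals alone these splits were 11 and 4 in WT control medium and 7 and 7 with Poly(I:C). Dnaja1 was at 119 and 106 CPM in the untreated WT libraries, 101 and 102 in untreated KO, 475 and 536 in WT control medium, 139 and 148 in KO control medium and 689.6 and 729.5 in KO with Poly(I:C). Dnaja1 encodes an HSP40 co-chaperone, and its WT control medium and Poly(I:C) libraries lay far above the others. It rose by 2.17 (SE 0.08, adjusted p = 1.77e-08) in WT control medium and rose by 2.30 (SE 0.08, adjusted p = 7.64e-09) with Poly(I:C). Hspa1a stood at 0.783 and 1.75 CPM in untreated WT cells and 0.883 and 0.389 in untreated KO cells, at 37.8 and 76.4 CPM in WT and 3.07 and 2.11 in KO control medium, and at 66.7 and 57.8 CPM with Poly(I:C). Hspa1b measured 0.877 and 1.09 CPM untreated and 46.2 and 104 in control medium in the WT libraries, against 0.556 and 0.162 untreated, 3.27 and 2.17 in control medium and 80.2 and 74.6 with Poly(I:C) in the KO libraries. These genes encode inducible HSP70 from near-identical copies, between which reads cannot be divided with certainty. The log2 differences in WT control medium were 5.40 for Hspa1a and 6.01 for Hspa1b, on a scale that understates changes of low genes, and with Poly(I:C) 4.56 and 4.81. Fkbp4, an HSP90 co-chaperone, fell by 0.44 in WT control medium and fell by 0.49 with Poly(I:C), where Hsf1 fell by 0.52 and Hsf2, like it a heat shock factor, fell by 0.36. With the deposited scaling neither factor passed (Hsf1 −0.32, adjusted p = 0.0622; Hsf2 −0.16, adjusted p = 0.27), nor did Hsf2 with rlog values (adjusted p = 0.0566). The list was drawn up with earlier results of these data known.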
